A study of Arabidopsis with 6 samples.

Results

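The first 0.5 h of light was followed in RNAi-21, an Arabidopsis line that carries RNA interference against PCD8. The RNAi-21 library taken at 0.5 h of light was compared with the RNAi-21 library taken in the dark, gene by gene, over the 17734 of 19763 listed genes that reached an FPKM of 1 in either library. FPKM is a transcript level scaled for transcript length and library size. These are 2 of the 6 RNA sequencing libraries of the study, which also holds RNAi-21 at 2 h and wild-type (WT) seedlings at 0 h, 0.5 h and 2 h. All groups were kept in the dark for 4 days before the light began, and the 0 h groups received none. RNAi-21 is a single line, labelled as a PCD8 RNAi mutant, and neither the promoter that drives the RNAi construct nor the number of plants per library is given in the sources used here. The level of PCD8 is not analysed here, since no locus of the name table carries that name, so the genotype labels have no check from the target transcript.

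Each group held 1 library, so no difference below has a replicate error or a test, and sizes only are given. Differences are 0.5 h minus 0 h on the log2(FPKM + 1) scale, on which changes of weakly expressed genes appear too small, and a difference of at least 1 is called 2-fold here. None of the libraries came from seedlings left in darkness for the added 0.5 h, so light and elapsed time cannot be told apart. FPKM summed to 792994 in the dark and 757504 at 0.5 h. The 0.5 h sum was the lowest of the 6 libraries, of which the highest was 891009, and the read depth is unknown. The tissue is labelled leaf, but both libraries held transcripts of root genes, with the Casparian strip gene CASP1 at an FPKM of 459 and 438 and the root glucosidase gene PYK10 at 5994 and 5703. In bulk RNA, fewer cells of a type and less RNA per cell cannot be told apart.

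A seedling that germinates in darkness elongates its hypocotyl, keeps its apical hook closed and holds its plastids as etioplasts. Light activates phytochromes and cryptochromes, which remove the growth-promoting PIF transcription factors and release HY5, a bZIP factor of greening, from destruction by the COP1/SPA ubiquitin ligase. The first transcripts to respond include regulators of light signalling and of the clock, while growth genes of the dark programme decline and the photosynthetic apparatus is built later.

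After 0.5 h in RNAi-21, transcripts at least 2-fold above their dark level included 16 of 28 light signalling regulators, 9 of 20 clock genes, 10 of 20 heat shock factors and coactivators and 13 of 33 early stress regulators. Those at least 2-fold below it included 11 of 28 auxin response and cell expansion genes. The gene lists here and below were chosen with earlier results of these data known. Shares above those of all genes can in part reflect that choice, and they are a description only. In all, 329 genes, 1.86% of those compared, passed 2-fold upward and 167, or 0.942%, passed it downward. Past 4-fold, 76 were higher and 20 lower. The median difference over all genes compared was -0.02, with the 5th and 95th percentiles at -0.45 and 0.52, so most transcripts were little different. The higher genes had a median FPKM of 5.22 in the dark and 19.2 at 0.5 h. The lower genes went from a median of 16.7 to 5.37, beside a dark median of 11.6 for all genes compared. Both sets were chosen on the difference between these same 2 libraries, which by itself favours low dark values in the higher set and high ones in the lower set. Among the higher genes 64 were under an FPKM of 1 in the dark, and 9 of these were listed at 0 there. Just inside and outside the 2-fold limit lay 63 genes with differences from 1 to 1.1 and 53 from 0.9 to 1, and on the lower side 30 and 53. At the level limit, the nearest gene inside was AT3G12955, with an FPKM of 1.001 in the dark, and the nearest outside was AT5G66455, with 0.9999 at 0.5 h. Of the 25 organelle-encoded genes compared, 1 passed 2-fold.

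**Figure D1:**
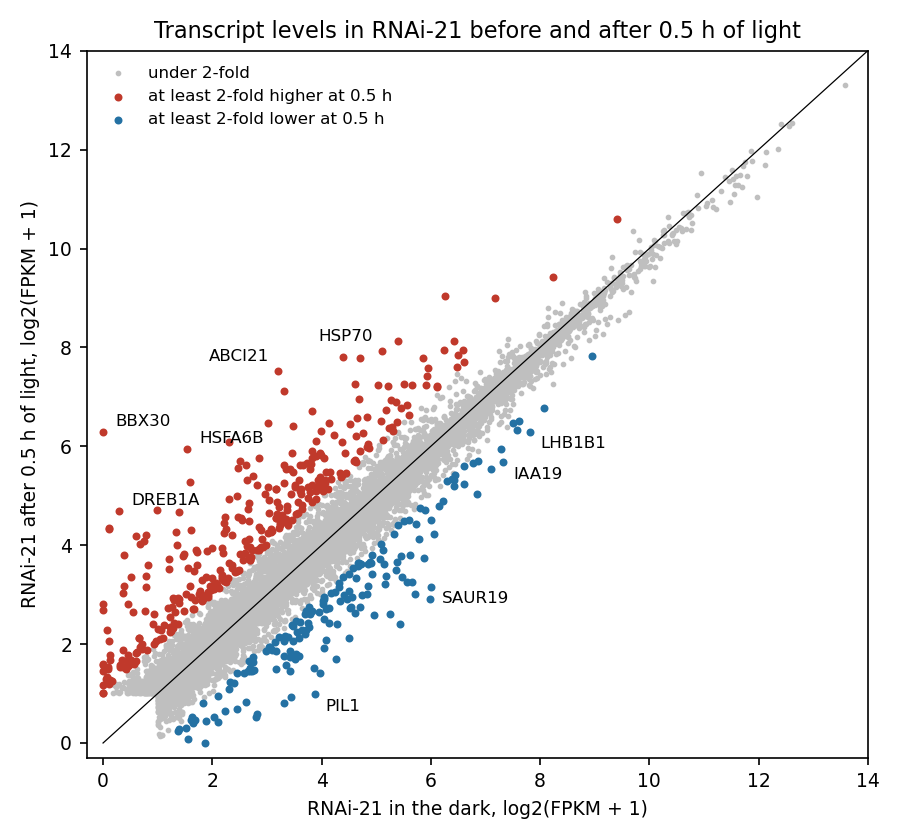
Each point is 1 of the 17734 genes compared, with log2(FPKM + 1) in the dark on the x axis and at 0.5 h of light on the y axis, both for RNAi-21. Red points mark the 329 genes past 2-fold upward and blue points the 167 past it downward, and the line marks equal levels.

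B-box proteins are zinc finger regulators that act with or against HY5, and several of their genes stood far above their dark level. BBX30 (AT4G15248), which encodes a small B-box protein, was listed at 0 in the dark and stood at an FPKM of 77.3 at 0.5 h and 110 at 2 h. A listed 0 can be a failed estimate, and no fold is given for it. BBX32 (AT3G21150), known to interfere with HY5 partners, went from an FPKM of 0.0735 to 19.4, a difference of 4.25, and stood at 60.8 at 2 h. BBX31 (AT3G21890), a close relative of BBX30, went from 0.300 to 13.0, a difference of 3.43. The repressors of the light response STO (BBX24) and STH (BBX25) went from FPKM of 41.4 and 0.779 to 278 and 11.2, differences of 2.72 and 2.77. Not every B-box gene was higher: BBX21, an activator of HY5, was at 242 and 195, and BZS1, which acts in brassinosteroid signalling, went from 22.7 to 10.7 with a difference of -1.02. In the whole B-box family, grouped by table names after values were seen, 11 of 26 compared genes were 2-fold higher and 2 were 2-fold lower.

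HY5 itself went from an FPKM of 13.2 to 103, a difference of 2.87, and stood at 215 at 2 h. The chloroplast sigma factor gene SIGE (SIG5), which directs plastid transcription under light, went from 1.56 to 15.1, a difference of 2.65. Brakes on light signalling were higher as well. SPA1, a partner of COP1, went from an FPKM of 6.77 to 31.9, and RUP1 and RUP2, which switch off the UV-B receptor, went from 13.9 to 55.0 and from 2.70 to 9.31. COP1 differed little, at 12.9 and 15.4. Of the 2 GOLDEN2-LIKE genes, activators of chloroplast development, GLK2 went from 14.8 to 57.4 and GLK1 stood at 3.95 and 3.81. SIGE, SPA1, RUP1, RUP2, COP1, GLK1, GLK2, BBX21 and BZS1 are named outside the rule for named genes. Of 28 compared members of the light signalling list, 16 were 2-fold higher and 1 was 2-fold lower, against 1.86% and 0.942% of all genes. The median difference was 1.25, and 1.11 with no level limit. BBX30, BBX31, BBX32 and STH passed that limit only by their 0.5 h value, so they had to lie above 0.

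The circadian clock list held 20 compared members, of which 9 were at least 2-fold higher and none lower, with a median difference of 0.69. LNK3 (AT3G12320), a light-inducible coactivator of the clock, went from an FPKM of 7.09 to 87.6, a difference of 3.45, and was lower again at 2 h, at 31.1. The daytime repressors PRR9 and PRR5 went from 0.691 to 16 and from 4.47 to 30.9, differences of 3.33 and 2.55. LNK1 (AT5G64170) went from an FPKM of 3.95 to 29.6, a difference of 2.63. The morning factor CCA1 went from 8.91 to 48.4, a difference of 2.32, and ELF4, a part of the evening complex, from 14.9 to 77.9, a difference of 2.31. The evening genes TOC1, at an FPKM of 40.1 and 48.9, and LUX (PCL1 in the table), at 58.9 and 56.6, differed by less than 2-fold, and both are named outside the rule.

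**Figure D2:**
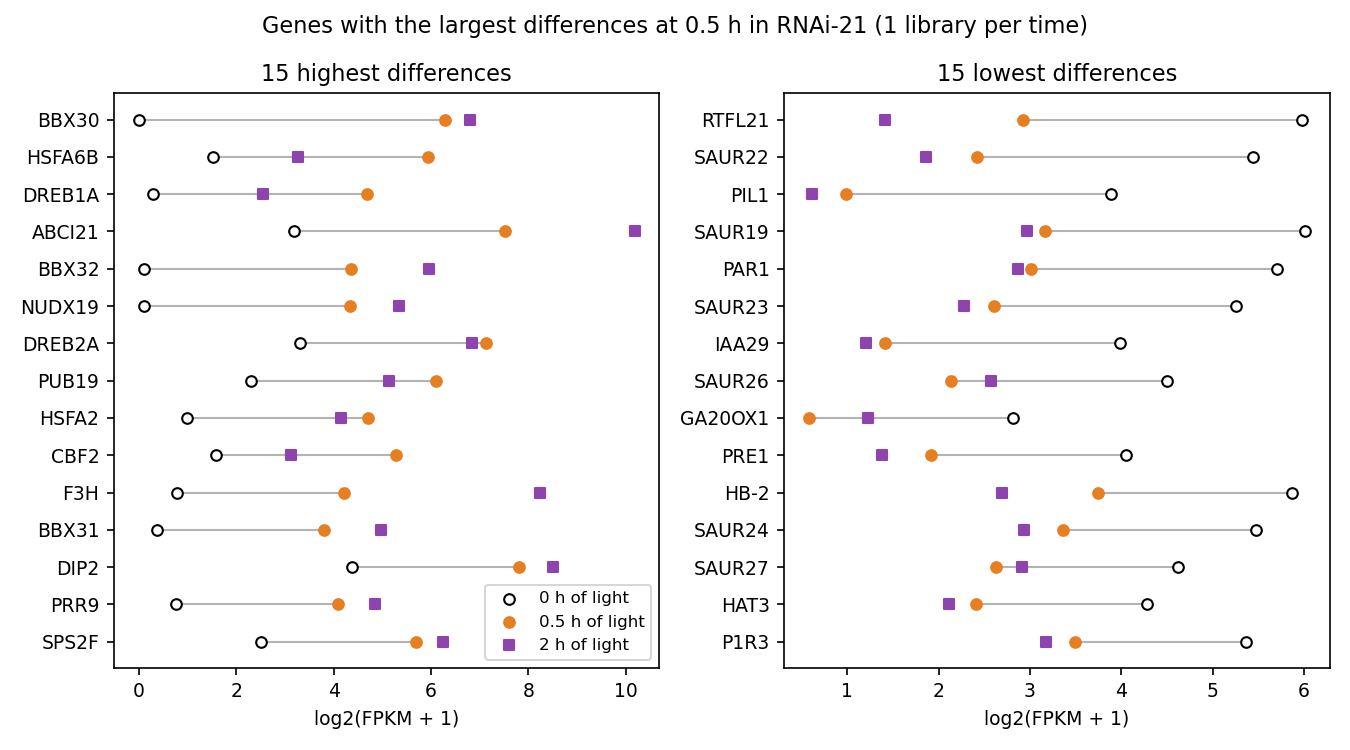
Transcript levels on the log2(FPKM + 1) scale in the dark and at 0.5 h of light in RNAi-21 are plotted for the 15 highest and 15 lowest differences, taken from named genes that reach 5 FPKM in the dark or at 0.5 h, 1 library per point. HSFA6B stands at 1.90 and 60.7 FPKM among the higher genes, and RTFL21 at 62.2 and 6.57 among the lower ones.

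Heat shock factors are transcription factors that switch on chaperone genes, and several were among the genes furthest above their dark level. HSFA6B (AT3G22830), a factor tied to abscisic acid responses, went from an FPKM of 1.90 to 60.7, a difference of 4.41, and was at 8.58 at 2 h. HSFA2, which amplifies the heat response, went from 0.988 to 25, a difference of 3.71. The coactivator gene MBF1C went from an FPKM of 25 to 220, a difference of 3.09, and DREB2A, a drought and heat factor that acts upstream of heat shock factors, from 8.88 to 139, a difference of 3.82. HSFA6A and AT-HSFB2B went from 4.52 to 22.7 and from 4.87 to 21.6. Of 20 compared members of this list, 10 were at least 2-fold higher, none was 2-fold lower and the median difference was 0.96. With no level limit the median was 0.84, and HSFA2 passed that limit only by its 0.5 h value.

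Chaperone transcripts were higher too, with 8 of 21 compared members at least 2-fold higher, none lower and a median difference of 0.62. The cytosolic HSP70 gene AT3G12580 went from an FPKM of 33.2 to 242, a difference of 2.83, and stood at 701 at 2 h. HSP101, the disaggregase of heat tolerance, went from 6.23 to 53.4, a difference of 2.91, and the immunophilin gene ROF2 (AT5G48570) from 2.27 to 13.6. HSP90.1 went from an FPKM of 8.14 to 28.2, and Fes1A, which protects HSP70 proteins, from 9.30 to 26.9. The constitutive HSC70-1, named outside the rule, was at 1212 and 1303, so the higher levels were not shared by every abundant chaperone. The plastid small chaperone HSP21, also outside the rule, stayed under the level limit, at 0.0717 and 0.25.

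The CBF genes, which encode the main transcription factors of cold acclimation, lie next to each other in the genome, and all 3 were higher. DREB1A (CBF3) went from an FPKM of 0.217 to 24.7, a difference of 4.40, CBF2 from 2.00 to 37.7, a difference of 3.69, and CBF1 from 0.293 to 7.22, a difference of 2.67. At 2 h they stood at 4.85, 7.71 and 1.61, below their 0.5 h levels. They formed the longest run of neighbouring genes at least 2-fold higher. Of the zinc finger stress regulators, ZAT6 went from an FPKM of 19.7 to 66.7 and ZAT12 (RHL41 in the table) from 40.1 to 117, differences of 1.71 and 1.53. In the early stress list, 13 of 33 compared members were at least 2-fold higher and none lower, with a median difference of 0.92. Members such as DREB1A and CBF1 passed the level limit only by their 0.5 h value, so they had to lie above 0. With no level limit the median of this list was 0.72.

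Drought, cold and abscisic acid response transcripts had a median difference of 0.98 over 18 compared members, 8 of them at least 2-fold higher and none lower. RD26, a NAC factor of dehydration, went from an FPKM of 16.5 to 87.3, a difference of 2.33. LTI78 (RD29A), a classic cold and drought marker, went from 9.73 to 45.4, a difference of 2.11, and KIN2, a cold-induced gene, from 44.4 to 153, a difference of 1.76. NCED3, the enzyme gene that limits abscisic acid synthesis, went from an FPKM of 12.9 to 45.7 and was at 13.1 at 2 h. GolS2 and SIP1 (raffinose synthase 5), of raffinose sugar synthesis, went from 6.42 to 18.7 and from 14 to 35.1.

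Other transcripts among the 15 highest fell in no single one of these groups. ABCI21 (AT5G44110) and ABCI20, light-induced ABC proteins, went from FPKM of 8.17 and 10.2 to 182 and 83.7, differences of 4.32 and 2.92, and stood at 1159 and 652 at 2 h. The third member of that list, ABCI19, went from 6.20 to 9.04, a difference of 0.48. The Nudix hydrolase gene NUDX19 went from 0.0756 to 19.2, a difference of 4.23, and PUB19, a ubiquitin ligase gene of drought responses, from 3.93 to 67.3, a difference of 3.79. DIP2 (AT5G03210) went from an FPKM of 19.9 to 222, a difference of 3.42, and SPS2F, a sucrose phosphate synthase gene, from 4.67 to 50.9, a difference of 3.19. In the flavonoid pathway F3H, flavanone 3-hydroxylase, went from 0.721 to 17.5 and was at 302 at 2 h, while TT4, the chalcone synthase that opens the pathway, stood at 1.97, 2.36 and 292. UGT78D2, a flavonoid glucosyltransferase, went from an FPKM of 1.51 to 18.17, a difference of 2.93. The first enzyme gene of the pathway was thus near its dark level at 0.5 h while F3H and UGT78D2 were not, and 2 of 10 compared members of that list were at least 2-fold higher. The photoprotective gene ELIP1, the genomic neighbour of HSFA6B, went from 9.23 to 45.8, and ELIP2 from 16.4 to 34.4, with 10 of 10 compared photoprotection members above 0 against 45.1% of all genes.

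**Figure D3:**
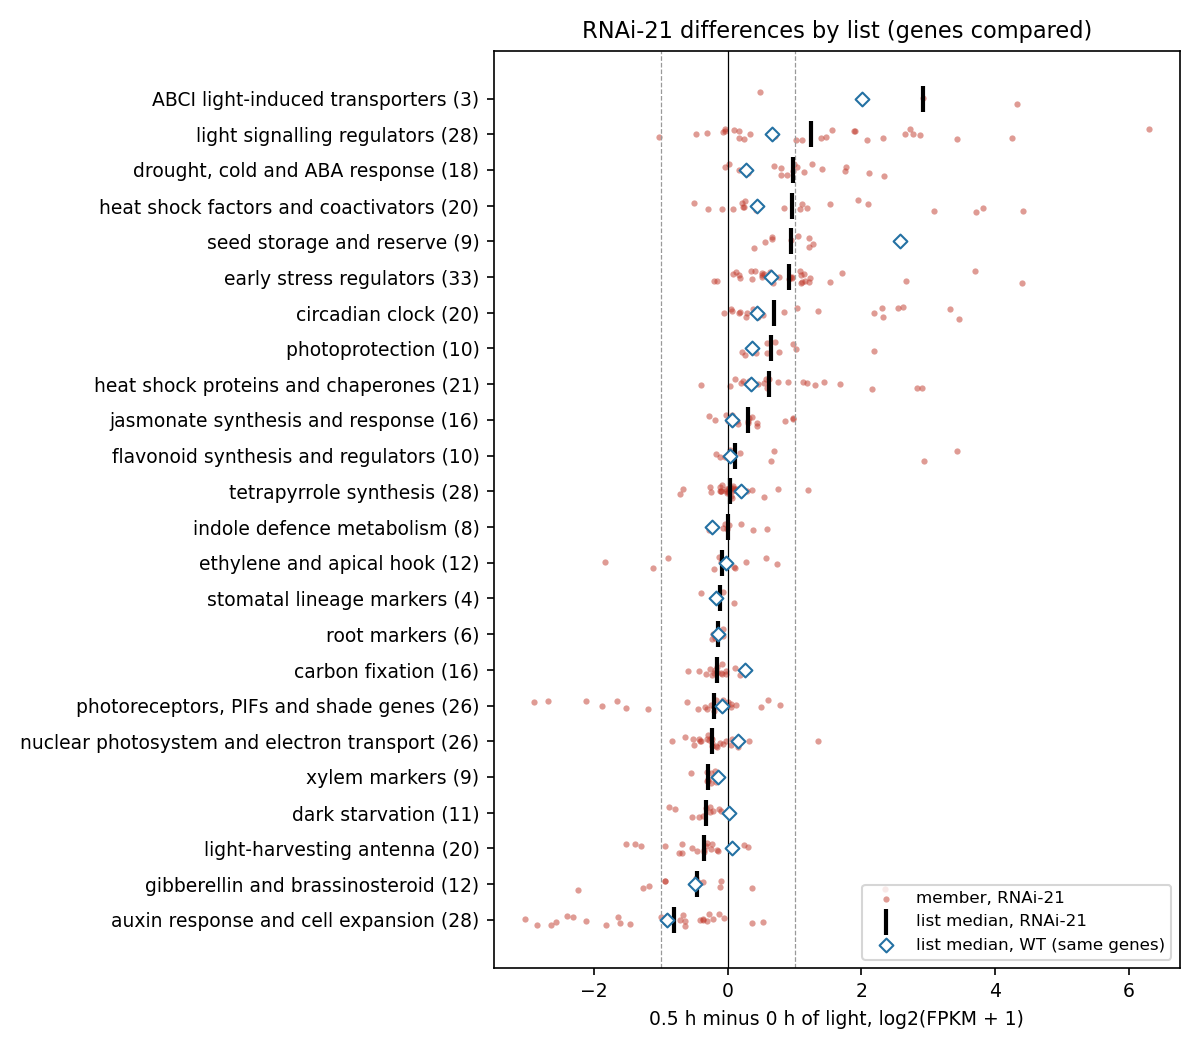
Differences in RNAi-21 between 0.5 h and 0 h, in log2(FPKM + 1), are plotted for the compared members of each gene list, with the RNAi-21 median as a bar and the WT median of the same genes as a diamond. Dashed lines mark 2-fold, and medians run from -0.81 for auxin and expansion genes to 2.92 for the ABCI genes.

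Transcripts of growth in darkness were lower after 0.5 h. The SAUR genes encode small proteins, many of them auxin-induced, and some members acidify the wall and promote cell elongation. SAUR19 and SAUR22 went from FPKM of 63.5 and 42.5 to 7.94 and 4.33, differences of -2.85 and -3.03. SAUR19 to SAUR24 are near-identical copies whose separate values are uncertain, but their summed FPKM went from 259 to 41.9, which is 16.2% of the dark sum, and stood at 31.8 at 2 h. SAUR26 and SAUR27, in another cluster, went from 21.6 to 3.38 and from 23.61 to 5.203. In the whole SAUR family, grouped by table names after values were seen, 31 of 66 compared genes were at least 2-fold lower and 1 was higher, SAUR35 (AT4G12410), at 1.27. Among the 167 genes 2-fold lower, 36 lay in 14 runs of neighbours, of which 8 runs held at least 2 SAUR genes, 23 in all. Among the 329 genes 2-fold higher, 31 lay in 15 runs, none of which held 2 SAUR genes.

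The auxin and cell expansion list had 11 of 28 compared members at least 2-fold lower, none higher and a median difference of -0.81. IAA29, an auxin-response repressor gene that PIFs activate, went from an FPKM of 14.8 to 1.66, a difference of -2.57, and IAA19, named outside the rule, from 159 to 50.2. PRE1, a growth-promoting helix-loop-helix gene, went from 15.5 to 2.77, a difference of -2.13. RTFL21, which encodes a small peptide of the ROTUNDIFOLIA family, went from 62.2 to 6.57, a difference of -3.06, the lowest among named genes. In that peptide family, grouped by table names after values were seen, 6 of 17 compared genes were at least 2-fold lower and none higher. P1R3 (AT3G29370) went from an FPKM of 40.3 to 10.3, a difference of -1.87.

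Shade and PIF target genes stood out among the lower transcripts, whereas the photoreceptors did not. PIL1, a close PIF target, went from an FPKM of 13.7 to 0.986, a difference of -2.89, and PAR1, a helix-loop-helix brake on shade growth, from 51.1 to 7.07, a difference of -2.69. The class II homeodomain-leucine zipper genes of shade avoidance were lower together: HB-2 went from 57.5 to 12.4, HAT3 from 18.5 to 4.32, HAT1 from 42.6 to 12.8 and HB4 from 3.11 to 0.433. Of the photoreceptors, named outside the rule, PHYA was at an FPKM of 172 and 139, PHYB at 16 and 16.1, and CRY1 at 34.9 and 33.1. The list had 7 of 26 compared members at least 2-fold lower and none higher.

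Gibberellin, a hormone of elongation, is made by GA 20- and 3-oxidases and inactivated by GA 2-oxidases. GA20OX1 and GA3OX1 went from FPKM of 6.02 and 12.8 to 0.496 and 5.07, differences of -2.23 and -1.18. The GA 2-oxidase gene ATGA2OX1 went from 0.365 to 6, a difference of 2.36, and was at 21.8 at 2 h. GAI, a repressor of gibberellin responses, went from an FPKM of 28.9 to 11.4. The ethylene synthesis genes ACS5 and ACS8 went from 11 to 2.38 and from 1.57 to 0.181, and HLS1, needed for the apical hook, from 6.29 to 2.91, a difference of -0.90. In these hormone lists 3 of 12 gibberellin and brassinosteroid members and 2 of 12 ethylene and hook members were at least 2-fold lower, with 1 and 0 higher.

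**Figure D4:**
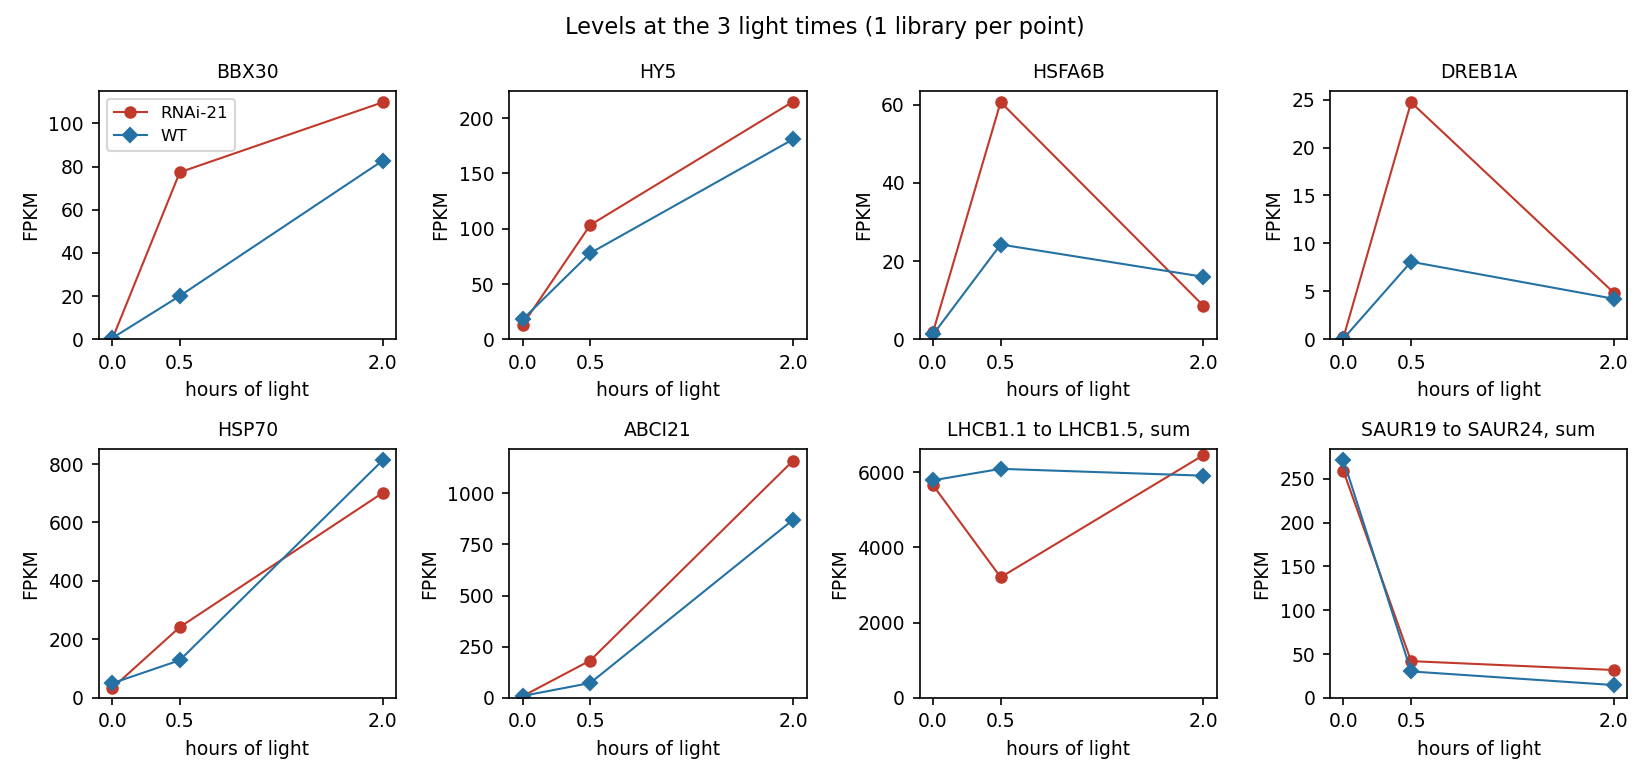
FPKM at 0, 0.5 and 2 h of light is plotted for BBX30, HY5, HSFA6B, DREB1A, HSP70, ABCI21, the LHCB1 sum and the SAUR19 to SAUR24 sum, with 1 line per genotype and 1 library per point. In RNAi-21 the LHCB1 sum stands at 5648, 3204 and 6450, and DREB1A at 0.217, 24.7 and 4.85.

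Light-harvesting antenna transcripts, which encode the chlorophyll-binding proteins of the photosystems, had 3 of 20 compared members at least 2-fold lower and none higher in RNAi-21. The summed FPKM of the 5 LHCB1 genes, near-identical copies whose separate values are uncertain, went from 5648 to 3204, or 56.7% of the dark sum, and stood at 6450 at 2 h. Those 3 members were all LHCB1 copies, namely LHB1B1, CAB2 and CAB3, with differences of -1.52, -1.38 and -1.30. Outside these copies, LHCB3 went from an FPKM of 233 to 144 and LHCB2.3 from 26.1 to 15.4, differences of -0.69 and -0.73. In the antenna list 3 of 20 members were above 0, against 45.1% of all genes, with a median difference of -0.35. For the Rubisco small subunit, the summed FPKM of the 4 RBCS copies went from 2377 to 1897, 79.8% of the dark sum.

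For photosystem and electron transport genes the median difference was -0.23, with 19 of 26 compared members below 0 and none 2-fold lower. PETE1, a plastocyanin gene, went from an FPKM of 35.4 to 19.4, and PSBQ-2, of the oxygen-evolving complex, from 163 to 105. One member went the other way: the ferredoxin gene FD1 went from 89.3 to 230, a difference of 1.35, and was at 926 at 2 h. The carbon fixation median was -0.16, and 14 of 16 members lay below 0. These medians are relative to a median of -0.02 over all genes.

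Genes of tetrapyrrole synthesis, which leads to chlorophyll and haem, showed no common direction, with 16 of 28 compared members above 0. The median difference was 0.03, and -0.000559 with a stricter level limit of 5. CH1, the enzyme gene of chlorophyll b formation, went from an FPKM of 12.4 to 30.0, a difference of 1.205 and the only one past 2-fold. GUN5, a magnesium chelatase subunit, went from 20.3 to 34.7, a difference of 0.75. PORA and PORB, the light-dependent protochlorophyllide reductases that accumulate in etioplasts, went from 117 to 73.2 and from 174 to 106, differences of -0.67 and -0.71.

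Dark starvation genes, active when carbon runs short, were below 0 in 11 of 11 members with none 2-fold lower and a median of -0.33. BGAL4, a beta-galactosidase, went from an FPKM of 685 to 374, SEN1 from 379 to 220 and ASN1, an asparagine synthetase, from 312 to 231. Jasmonate genes had a median of 0.30 over 16 members, with CYP94B3, of jasmonate breakdown, at 18.7 and 37.8, and JAZ1 at 19.8 and 39.8. Both lay just under a difference of 1, at 0.98 and 0.97, and just over it with a pseudocount of 0.1 (1.013 and 1.006) or with totals equalised (1.043 and 1.038). No jasmonate member reached 1 on the log2(FPKM + 1) scale. The indole defence list had a median of 0.01 over 8 members. Markers of roots, xylem and the stomatal lineage had medians of -0.15, -0.29 and -0.12. Below 0 lay 6 of 6 root, 9 of 9 xylem and 3 of 4 stomatal members, while 45.1% of all genes lay above 0. None of these 19 compared members differed by 2-fold, which is near the shares of all genes, 1.86% higher and 0.942% lower.

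The same 0.5 h in WT, which shares no library with RNAi-21, gave 151 genes past 2-fold upward, 0.851% of those compared, and 202, or 1.14%, past it downward, while 51.6% lay above 0. Both genotypes counted 110 higher genes, 33.4% of the 329 in RNAi-21 and 72.8% of the 151 in WT. They counted 111 lower genes in common, 66.5% of the 167 in RNAi-21 and 55.0% of the 202 in WT. Seed storage transcripts differed between the genotypes at 0.5 h. The cruciferin genes CRU3 and CRA1 went from an FPKM of 0.170 and 0.295 to 84.7 and 63.9 in WT. In RNAi-21 they went from 2.14 and 2.89 to 5.51 and 8.01. At 2 h they stood at 0.288 and 0.887 in WT and at 12.0 and 17.2 in RNAi-21. The high WT levels of both genes were thus seen in 1 library, that of 0.5 h. Of 13 listed seed genes, 9 passed the level limit in RNAi-21, with 4 at least 2-fold higher and all 9 above 0. Their median difference was 0.95, against 2.58 in WT. Members such as SESA2, EM1, OLEO4 and OLEO1 passed that limit only by their 0.5 h value, so they had to lie above 0. With no level limit the seed list median was 0.66 in RNAi-21. Without the seed list, 325 genes were at least 2-fold higher in RNAi-21. In WT, 139 were higher without it, of which 106 were also higher in RNAi-21. The part of these transcripts in the other genotype differences was not tested.

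Genes chosen on their values in 1 genotype were described in both as a comparison of size. The 151 genes higher in WT had a median difference of 1.92 in RNAi-21 against 1.43 in WT, and RNAi-21 was further up in 95 of them. The 202 genes lower in WT had a median of -1.09 in RNAi-21 against -1.31 in WT, and RNAi-21 was further down in 45. Choosing genes on WT favours WT values far from 0. Genes chosen on RNAi-21 favour RNAi-21 in the same way: the 329 higher ones had a median of 1.397 against 0.767 in WT, and the 167 lower ones a median of -1.31 against -1.30, with RNAi-21 further down in 101. For lower genes the WT median was thus further down when WT chose them, and the medians were nearly equal when RNAi-21 chose them. For higher genes the RNAi-21 median was above that of WT under both choices. Each value rests on 1 library per group, with no test.

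**Figure D5:**
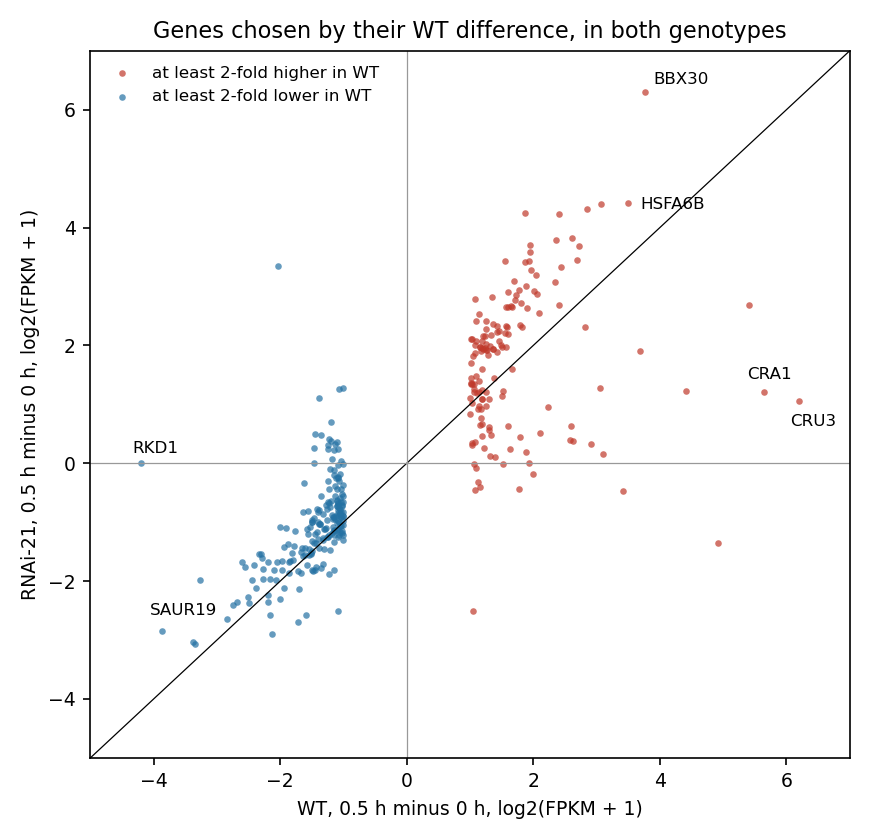
Each point is a gene at least 2-fold higher (red, 151) or lower (blue, 202) at 0.5 h in WT, with its WT difference on the x axis and its RNAi-21 difference on the y axis, in log2(FPKM + 1). The line marks equal differences, with BBX30 above it and the seed storage genes CRU3 and CRA1 far below it.

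Across all genes with an FPKM of 1 in any of the 4 libraries, 169 of 18050 (0.936%) had a response at least 2-fold higher in RNAi-21 than in WT and 75 (0.416%) a response at least 2-fold lower, while 47.6% lay above 0. BBX30, BBX32 and F3H were among the 8 highest. BBX32 went from an FPKM of 0.509 to 4.51 in WT, so that its response was 2.38 higher in RNAi-21, and F3H from 1.33 to 5.81, a response 1.88 higher. NUDX19, HSFA2 and ASG4, a MYB-related gene at 0.308 and 7.98 in RNAi-21, had responses higher by 1.83, 1.76 and 1.70. MLP328, a latex-like protein gene, went from 18.3 to 25.8 in RNAi-21 and from 30.2 to 11.2 in WT, and RKD1 owes its place to an FPKM of 17.41 in dark WT, since both RNAi-21 libraries listed it at 0. The 8 lowest responses, from -5.14 to -2.18, were those of the seed storage genes CRU3, CRA1, CRU2, SESA5 and SESA3, the oil body gene OLEO1, and the peptide genes GASA2 and GASA3.

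By list, the RNAi-21 response lay above that of WT in 17 of 18 drought, cold and abscisic acid members and 17 of 20 heat shock factors and coactivators, and in 15 of 21 chaperones. KIN2 was at an FPKM of 48.2 and 52.4 in WT, a difference of 0.12 against 1.76 in RNAi-21, and GolS2 at 4.07 and 4.31, a difference of 0.07 against 1.41. HSP70 differed by 1.35 in WT against 2.83, and HSP101 by 1.61 against 2.91. In the other direction the RNAi-21 response lay below that of WT in 17 of 20 antenna, 24 of 26 photosystem and 16 of 16 carbon fixation members. Such splits were not particular to these lists. It lay below WT in 11 of 11 dark starvation, 8 of 9 xylem and 21 of 28 tetrapyrrole members. It lay above WT in 8 of 8 indole defence and 48 of 66 SAUR family members. The LHCB1 sum was 5781 and 6085 in WT, 105% of the dark sum, where it was 56.7% in RNAi-21. The SAUR19 to SAUR24 sum was 271 and 30.1 in WT, a difference of -3.13 against -2.60 in RNAi-21. All of these genotype differences rest on 4 libraries and were not tested.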

How the data were processed

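Total RNA was extracted with TRIzol and sequenced as Illumina libraries, per the labels' protocols. The submitters' processing notes name HISAT and Bowtie2, with no version. The quantifier, the annotation and the genome build were not given in the sources used here. FPKM, computed by the authors before deposit, is the unit assumed for the values. It is not named in any header or label and was inferred, since the values are not whole and each library has its own sum. No whole-read steps were found, so depth and counting intervals are unknown.

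Genes were joined on locus, kept where either library reached an FPKM of 1, and compared as log2(FPKM + 1). With 1 library a group no test was run, and "called" means 2-fold. The code was tested on simulated data. Names came from a RefSeq TAIR10.1 table (19532 loci matched, 8494 with a symbol). Sequences and promoter motifs were not used here.

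Members and 24 lists (455 genes, 394 compared) were chosen with earlier results of these data known, and the families by name, the clade A phosphatases and the phototropism list after values were seen. The named genes are the 15 highest and 15 lowest differences of genes that have a symbol and reach 5 FPKM in the dark or at 0.5 h, up to 6 per list, and the 8 highest and 8 lowest RNAi-21 minus WT responses of those that reach 5 FPKM in any of 4 libraries. Alternatives were median-ratio scaling, totals equalised without organelle genes, a filter of 5 or none, a pseudocount of 0.1, a 4-fold threshold and, added after seeing the data, the seed list left out. Python 3.11.15, pandas 2.3.3, numpy 2.4.6 and matplotlib 3.10.9 were used.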

Additional observations from a re-analysis of the deposited data

Results flagged for a closer look

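The list medians of photosynthesis and dark starvation genes lay below 0 in RNAi-21 and above 0 in WT at 0.5 h. The WT median over all genes compared was 0.01. None of these differences was tested, since each rests on 1 library per group. The antenna median was -0.35 in RNAi-21 and 0.07 in WT, a difference of -0.43. The photosystem median was -0.23 and 0.16, a difference of -0.39. The carbon fixation median was -0.16 and 0.26, a difference of -0.42. The dark starvation median was -0.33 and 0.03, a difference of -0.36, so in WT it was near that of all genes. Its members did not share a direction in WT. ASN1 was at 312 and 231 FPKM in RNAi-21 and 370 and 423 in WT. SEN1 was lower in both genotypes, at 379 and 220 in RNAi-21 and 467 and 341 in WT.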

How the results depend on the processing

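In RNAi-21 the 329 higher genes became 76 at 4-fold, and 274 to 467 under the other settings. The 167 lower genes became 20 at 4-fold, 274 with a pseudocount of 0.1 and 146 to 167 otherwise. In WT, 151 higher and 202 lower became 33 and 32 at 4-fold and 267 and 343 with a pseudocount of 0.1. The medians of the tetrapyrrole, flavonoid and stomatal lists reversed with a filter of 5, to -0.000559, -0.0358 and 0.10. With totals equalised the median over all genes moved from -0.02 to 0.0399, and CYP83B1 and PAD3 to 0.0025 and 0.0167. No other direction turned among list medians and named genes under these settings, but the size of several list medians changed. With a filter of 5 the light signalling median went from 1.25 to 1.48. The SAUR family median went from -0.89 to -1.47 and the B-box family median from 0.48 to 0.33. No paired analysis was possible because each group holds 1 library and no result comes from a test, and for the same reason no replicate could be left out. Depth is unknown, so the error of weakly expressed genes cannot be given.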

Other observations

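Clade A protein phosphatases 2C, which hold back abscisic acid signalling, were listed after values were seen. All 8 compared members were above 0 in RNAi-21, 5 of them at least 2-fold higher, with a median difference of 1.28 in RNAi-21 and 0.77 in WT. PP2CA went from an FPKM of 57.2 to 219, HAI1 from 22.0 to 86.6 and ABI1 from 60.3 to 171, which are genes with dark levels well above the filter. Among 5 phototropism genes listed likewise, RPT2, a partner of phototropin signalling, went from 23.4 to 153 and PKS1 from 7.10 to 35.3, while PKS4 went from 9.69 to 2.65.

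Of the 17734 genes compared in RNAi-21, 6 passed 2-fold in opposite directions in the genotypes, and none of them has a symbol. Beside these, 110 genes were higher and 111 lower in both genotypes. Each value rests on 1 library, and a listed 0 can be a failed estimate. AT5G37250 went from an FPKM of 0.608 to 15.4 in RNAi-21 and from 6.40 to 0.810 in WT. AT5G35660 went from 11.5 to 3.90 in RNAi-21, and in WT was listed at 0 in the dark and stood at 29.4 at 0.5 h. The unnamed locus XLOC_014961 went from 75.5 to 523 in RNAi-21 and was at 18.22 at 2 h, against 37.4, 71.6 and 106 in WT. Small nuclear RNA genes differed without a common direction, with U2.5 at 29.2 and 14.4 in RNAi-21 and 14.8 and 24.3 in WT, and U1.5 at 4.40 and 8.25 in RNAi-21 and 42.3 and 26.1 in WT.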
